A study of Mus musculus with 2 samples.

Results

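The enzymes of glycolysis, the pentose phosphate pathway and the tricarboxylic acid (TCA) cycle were followed through an RNAseq comparison of cells that carry a lot or little of a SOX2 reporter. The genes are a list of 51 central carbon enzymes given by name, drawn up with earlier results of these data known, and all 51 were found among the 21628 entries of the deposited table. Of these, 22 act between glucose and lactate, 8 belong to the pyruvate dehydrogenase complex and its kinases, 6 to the pentose phosphate pathway and 15 to the TCA cycle or its cytosolic counterparts. Both libraries came from mice of genotype Sox2GFP, in which green fluorescent protein (GFP) reports expression of the transcription factor SOX2, at postnatal day 0 (P0). The tongue epithelium of many pups was pooled and dissociated with enzymes, and FACS collected about 100000 bright cells (population GFP_High, here GFP-high) and about 100000 dim cells (population GFP_Low, here GFP-low). The populations are therefore bins of reporter brightness, each of which can hold several cell types, and not purified cell types. There was 1 library per population, so no difference below has a replicate check, and no p-value, SD or test is given.

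Glycolysis splits glucose into pyruvate in the cytosol, and lactate dehydrogenase turns pyruvate into lactate. The pyruvate dehydrogenase complex, which its kinases switch off, instead turns pyruvate that has entered the mitochondrion into acetyl-CoA, which the TCA cycle oxidises. The pentose phosphate pathway branches off after hexokinase and yields NADPH, the reducing agent of lipid synthesis and antioxidant defence, and ribose for nucleotides. Several steps have isozymes with typical tissues, such as the muscle enolase *Eno3* and the neuronal enolase *Eno2*. Many of these genes have processed pseudogenes, intronless copies of their mRNA elsewhere in the genome, and short reads cannot be assigned when gene and copy read alike.

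This last property bears on some of the best known members, so the shared sequence is shown first. Windows of 50 nt, the read length given by the labels, were taken along all exons of a gene, and each was looked up in every other annotated transcript. For *Gapdh*, which oxidises glyceraldehyde phosphate, 58.4% of windows were found at another locus, and 213 annotated pseudogenes shared at least 1 window. Within the coding sequence the share was 968 of 1028 windows (94.2%) for *Gapdh*. All 1202 coding windows of *Pgk1*, the first ATP-forming enzyme of glycolysis, and all 713 of *Pgam1*, which moves the phosphate of phosphoglycerate, were found elsewhere too. The stretches below are 100 nt of coding exons from GENCODE M21 transcripts (mm10), at chr6:125163287-125163386 (minus strand, exon 3) and chr19:41915647-41915746 (plus strand, exon 2). Capitals mark a 50-nt window that occurs at 66 other loci for *Gapdh* and at 2 for *Pgam1*.
Gapdh: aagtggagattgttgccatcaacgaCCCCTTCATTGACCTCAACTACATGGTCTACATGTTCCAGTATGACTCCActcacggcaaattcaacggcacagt
Pgam1: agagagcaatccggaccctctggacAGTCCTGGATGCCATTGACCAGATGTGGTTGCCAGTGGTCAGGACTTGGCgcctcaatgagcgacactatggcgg

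A read from the capitals could have come from the gene or from any of its copies. Over all exons, at least 20% of the windows were shared in 6 members, namely *Pgk1* (68.0%), *Gapdh*, *Eno1* (49.5%), *Pgam1* (41.5%), *Pdhb* (30.3%) and *Ldhb* (21%), and their values are treated as uncertain. The same held for 2236 of 21368 entries with an annotated sequence (10.5%). At the other end, 31 members shared no window with another locus, while *Suclg2* (19.1%), *Gpi1* (19.0%) and *Pkm* (18.4%) lay just under the mark. The search covered annotated transcripts alone, so unannotated copies were not counted.

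**Figure D1:**
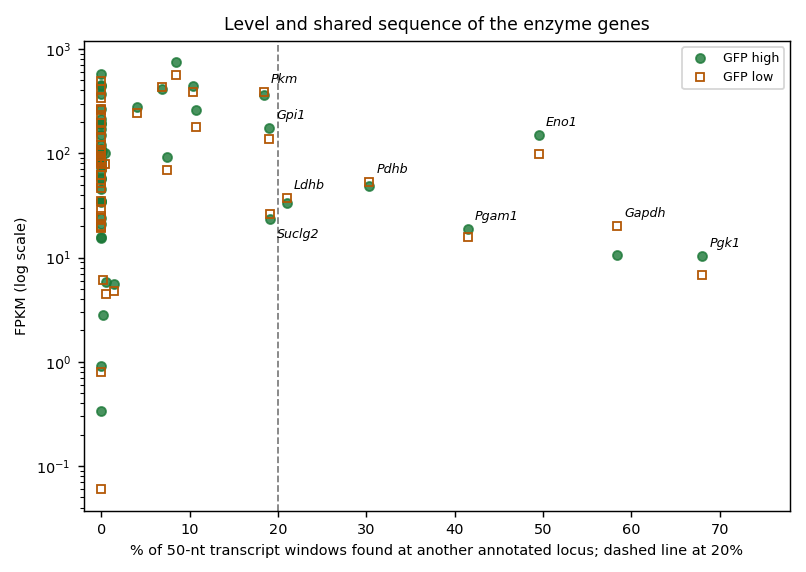
FPKM of each member (vertical axis, log scale; filled circles for the GFP-high and open squares for the GFP-low library) against the percent of its 50-nt exon windows found at another annotated locus, with a dashed line at 20%. *Gapdh*, *Pgk1* and *Pgam1* combine over 40% shared windows with under 25 FPKM in both libraries.

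Expression was given as FPKM, fragments per kilobase of transcript corrected for library size, a per-length scale on which genes can be set side by side. The labels put the sequencing at about 75M reads each. Steps between low values pointed to about 27500000 reads behind the values in GFP-high against 31250000 in GFP-low cells, but only 66.4% of 122 and 56.2% of 105 low values lay within 0.15 of a whole read, so these depths are rough. *Sox2* itself was at 112.3 FPKM in GFP-high against 59.02 in GFP-low cells. The epithelial label was borne out by *Krt5* and *Krt14*, which were at 9667 and 6672 FPKM in GFP-high and at 10422 and 9635 FPKM in GFP-low cells.

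Most of the 51 enzyme genes were abundant in both libraries, with small differences between them. Their FPKM summed to 7478 in GFP-high cells, 0.7% of the summed FPKM of all entries, and to 6590 in GFP-low cells (0.66%). The median member was at 87.1 FPKM in GFP-high against 79.3 in GFP-low cells, compared with 31.8 and 32.6 over the 10760 entries with at least 5 FPKM in either population. *Aldoa*, an aldolase, had the highest listed level of all members in both libraries (748.75 and 566.85 FPKM, GFP-high first, the order used throughout), followed by the mitochondrial malate dehydrogenase *Mdh2* (572.07 and 491.66 FPKM). These sums and ranks take in the 6 members of uncertain FPKM, *Gapdh* and *Pgk1* among them, and hold for the listed values alone. *Hk3* and *Pgam2* were the members under 1 FPKM in both, and the other 49 reached 5 FPKM in at least 1 population. The levels of all members span from 0.34 to 748.75 FPKM in GFP-high cells and from 0.06 to 566.85 in GFP-low cells.

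**Figure D2:**
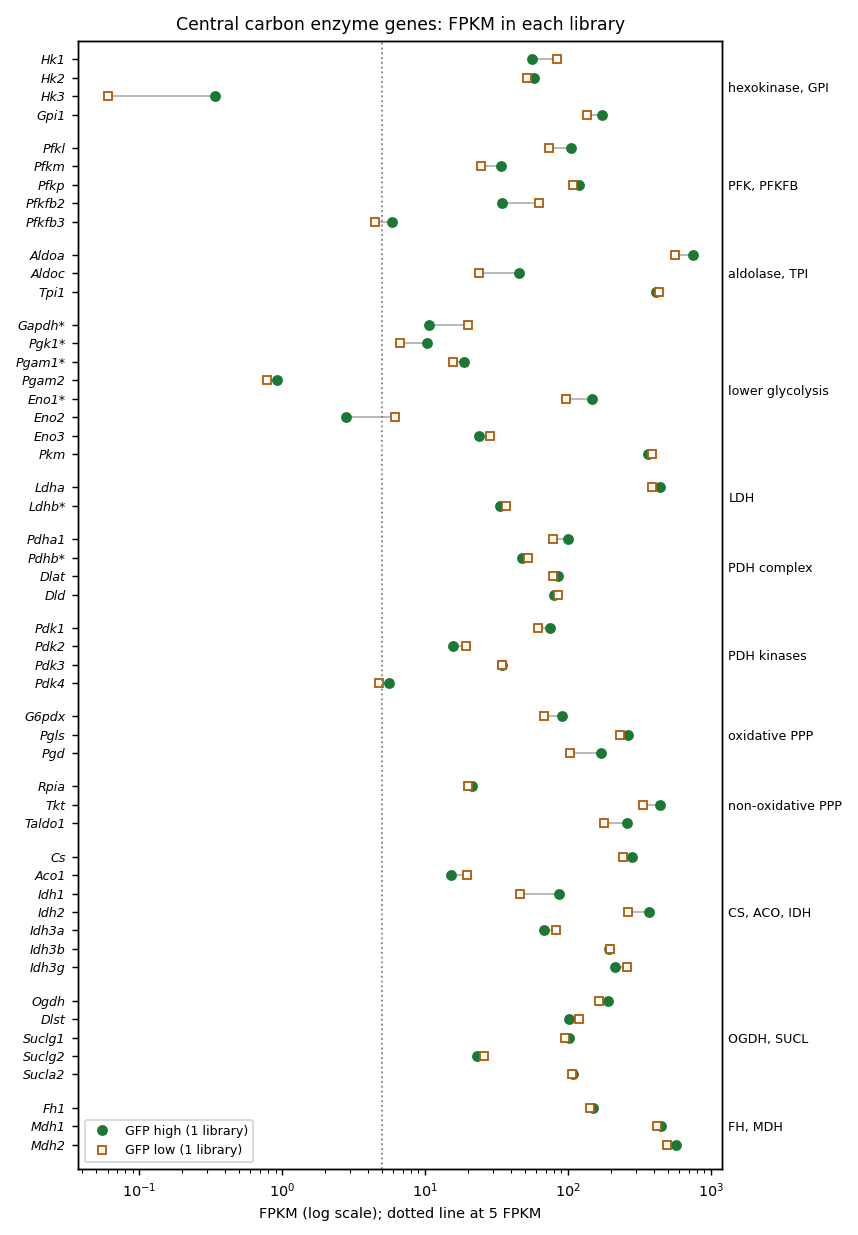
FPKM of the 51 members in the GFP-high and GFP-low libraries (log axis, 1 point per library), ordered by pathway. Most pairs of points nearly coincide, and the levels run from under 1 FPKM for *Hk3* and *Pgam2* to 748.75 and 572.07 FPKM for *Aldoa* and *Mdh2* in GFP-high cells.

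A gene was counted as higher in a population at 5 FPKM or more there and a ratio of at least 1.5. By this rule 5 members were higher in GFP-high cells (*Aldoc*, *Idh1*, *Pgd*, *Eno1* and *Pgk1*), which is 10.2% of the 49 members that reached 5 FPKM, and the same rule counted 9.48% of the 10760 entries (4.72% of all 21590 compared). For GFP-low cells 3 members were counted (*Eno2*, *Gapdh* and *Pfkfb2*), or 6.12%, against 8.9% of the 10760 entries (4.44% of all 21590). The counts were thus near the background in both directions and are no result about these pathways. The remaining 43 members were not counted. In 29 of the 49 members (59.2%) the libraries differed by less than 1.25-fold, against 62.7% of the 10760 entries. The GFP-high value was the larger in 32 of 49 members (65.3%), against 44.6% of the 10760 entries, and the GFP-low value was the larger in 17 (34.7%), against 55.4%.

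That last share depends on the scale. FPKM sums differed between the libraries, and dividing each library by its sum (the TPM scale) lowers the log2 ratio of every gene by 0.10. Then 26 of 49 members (53.1%) had the larger value in GFP-high cells, against 33.9% of the 10760 entries, and the direction turned for 6 members, *Pdk3*, *Rpia*, *Suclg1*, *Sucla2*, *Fh1* and *Mdh1*. On that scale 3 members (*Aldoc*, *Pgd* and *Idh1*) were counted as higher in GFP-high cells, against 7.68% of the 10760 entries, and 4 (*Hk1* and the 3 named before) in GFP-low cells, against 11.2%. The median difference in log2(FPKM + 1), GFP-high minus GFP-low, was 0.15 over the members and -0.04 over all entries at 5 FPKM or more in either population. On the log2(value + 1) scale the differences of low genes are understated. Because these are bulk samples, fewer cells that express a gene and less of its RNA per cell cannot be told apart.

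**Figure D3:**
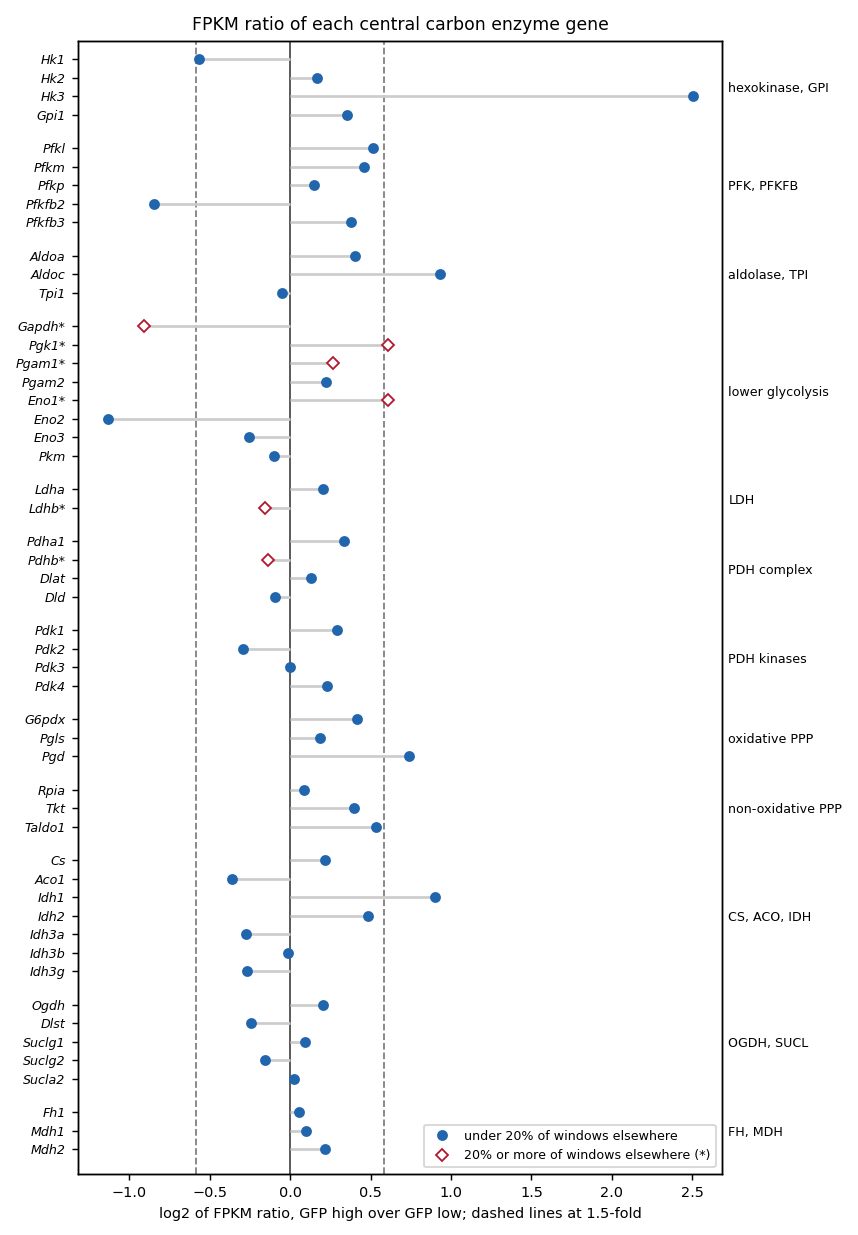
The log2 ratio of GFP-high over GFP-low FPKM for each member, with lines at 1.5-fold in either direction and members of uncertain FPKM marked. *Aldoc*, *Idh1*, *Pgd*, *Eno1* and *Pgk1* lie past the line on the GFP-high side, and *Eno2*, *Gapdh* and *Pfkfb2* on the GFP-low side, while *Hk3* lies past it but stayed under 1 FPKM and was not counted.

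Glycolysis opens with hexokinase, which traps glucose as its phosphate. *Hk1* was at 56.32 and 83.47 FPKM, 1.48-fold higher in GFP-low cells and just short of the count, which it entered on the TPM scale at 1.59-fold. *Hk2*, the insulin- and growth-responsive isozyme, was at 58.41 and 52.07 FPKM. The order of the pair therefore differed between the libraries. *Hk2* held 50.8% of hexokinase FPKM in GFP-high against 38.4% in GFP-low cells, while *Hk1* held 48.9% and 61.6%. *Hk3* stayed at 0.34 and 0.06 FPKM, about 32.6 and 6.53 reads at the rough depths. *Gpi1*, which converts glucose phosphate to fructose phosphate, was at 173.79 and 136.05 FPKM.

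Phosphofructokinase commits the sugar to glycolysis, and all 3 of its genes had the larger value in GFP-high cells without reaching 1.5-fold. The liver-type *Pfkl* was at 104.84 and 73.31 FPKM (1.43-fold), the muscle-type *Pfkm* at 34.1 and 24.81 (1.37-fold) and the platelet-type *Pfkp* at 119.76 and 107.91 (1.11-fold). Their sum was 258.7 FPKM in GFP-high against 206.0 in GFP-low cells, and *Pfkp* was the most abundant of the 3 in both. The PFKFB enzymes make or remove a regulatory fructose bisphosphate that activates phosphofructokinase. *Pfkfb2* (ENSMUSG00000026409, chr1:130689182-130729253) was at 34.75 FPKM in GFP-high against 62.42 in GFP-low cells, 1.80-fold higher in GFP-low cells. *Pfkfb3* was low in both populations (5.85 and 4.5 FPKM). The phosphofructokinases and *Pfkfb2* thus had their larger values in opposite populations.

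Aldolase splits the hexose, and both of its genes had the larger value in GFP-high cells. *Aldoc* (ENSMUSG00000017390, chr11:78322968-78327781), known as the brain aldolase, was at 45.51 and 23.9 FPKM, 1.90-fold higher in GFP-high cells and the largest ratio in that direction among members at 5 FPKM or more. None of its windows was shared with another locus. *Aldoa* was 1.32-fold apart, and since it held 94.3% and 96.0% of aldolase FPKM, *Aldoc* made up 5.73% in GFP-high against 4.05% in GFP-low cells. *Tpi1*, which interconverts the products of aldolase, was nearly level at 416.78 and 432.57 FPKM.

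The steps from glyceraldehyde phosphate to phosphoglycerate rest on genes of uncertain FPKM. *Gapdh* (ENSMUSG00000057666, chr6:125161715-125166467) was listed at 10.66 FPKM in GFP-high against 20.04 in GFP-low cells, 1.88-fold higher in GFP-low cells. *Pgk1* (ENSMUSG00000062070, chrX:106187100-106203699) was listed at 10.26 and 6.74 FPKM, 1.52-fold higher in GFP-high cells, and *Pgam1* at 18.82 and 15.66 FPKM. *Eno1*, at the following step, also had 1044 of 1253 coding windows (83.3%) at another locus but was listed at 148.59 and 97.3 FPKM. How much of their ratios comes from the assignment of shared reads was not tested. *Pgam2*, the muscle mutase, was at 0.92 and 0.79 FPKM.

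Enolase, the next step, is encoded by *Eno1* in most tissues. *Eno1* (ENSMUSG00000063524, chr4:150236721-150248879) was at 148.59 and 97.3 FPKM, 1.53-fold higher in GFP-high cells, and shared windows with 8 pseudogenes and with *Eno1b*. On the TPM scale *Eno1* and *Pgk1* fell under the threshold, at 1.43- and 1.42-fold. *Eno2* (ENSMUSG00000004267, chr6:124760053-124769673) was at 2.8 and 6.15 FPKM, 2.2-fold higher in GFP-low cells and the only member past 2-fold among those at 5 FPKM or more in either population. *Eno3* was at 23.99 and 28.66 FPKM. *Eno1* made up 84.7% of enolase FPKM in GFP-high against 73.7% in GFP-low cells, *Eno3* 13.7% and 21.7%, and *Eno2* 1.6% and 4.66%. These shares rest on the uncertain *Eno1*, and without it *Eno3* held 89.5% and 82.3%, which turns the order of the libraries for *Eno3*. The pyruvate kinase gene *Pkm* followed at 364.31 and 389.86 FPKM, nearly level.

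Lactate dehydrogenase was almost wholly of the *Ldha* type, which favours lactate formation. *Ldha* was at 445.22 and 386.35 FPKM, and *Ldhb*, the heart-type subunit, at 33.26 and 37.14 FPKM. *Ldha* held 93.0% and 91.2% of the summed FPKM. Over the 22 genes from glucose to lactate the sum was 2858 FPKM in GFP-high against 2557 in GFP-low cells, with 3 genes counted in each direction and a median log2 difference of 0.18. The sum takes in *Gapdh*, *Pgk1*, *Pgam1*, *Eno1* and *Ldhb*, whose FPKM is uncertain, and *Gapdh*, *Pgk1* and *Eno1* are among the counted genes.

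**Figure D4:**
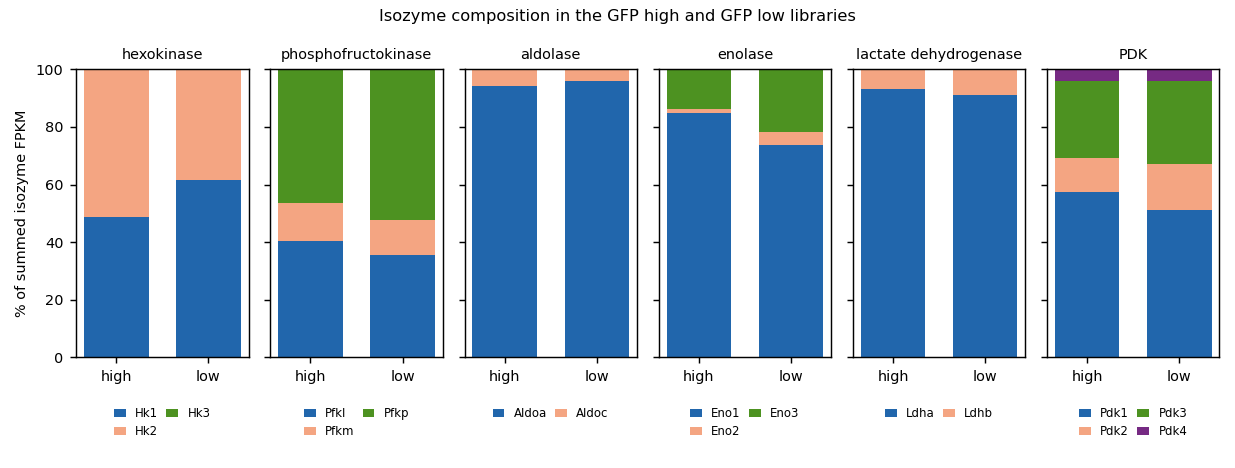
Share of each isozyme gene in the summed FPKM of its step (percent, stacked to 100), with GFP-high and GFP-low cells side by side. *Hk2* held 50.8% of hexokinase FPKM in GFP-high against 38.4% in GFP-low cells, *Eno1* (of uncertain FPKM) held 84.7% and 73.7% of enolase FPKM, and *Aldoa* and *Ldha* held over 90% of their steps in both.

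Genes of the pyruvate dehydrogenase step differed by less than 1.5-fold. Of the complex itself, *Pdha1* (the X-linked catalytic subunit) was at 100.02 and 79.29 FPKM, *Pdhb* (its uncertain partner) at 48.1 and 52.91, *Dlat* (the acetyltransferase) at 85.61 and 78.36 and *Dld* (the lipoamide dehydrogenase) at 80.21 and 85.48. None of these 4 genes was counted, and their sum was 313.9 and 296.0 FPKM. Among the inhibitory kinases *Pdk1* was the most abundant at 75.38 and 61.62 FPKM, *Pdk3* was nearly equal in the libraries (34.85 and 34.84), *Pdk2* was at 15.8 and 19.36 and *Pdk4* at 5.6 and 4.77. *Pdk1* made up 57.3% of kinase FPKM in GFP-high against 51.1% in GFP-low cells.

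All 6 pentose phosphate genes had the larger value in GFP-high cells, with a median log2 difference of 0.40 and a sum of 1251 against 939.5 FPKM. Only 1, *Pgd*, was counted, and on the TPM scale *Rpia* turned and 5 of 6 kept the direction. Of the 10760 entries, 44.6% had the larger value in GFP-high cells and 9.48% were counted there. In the oxidative branch, *G6pdx*, the X-linked entry enzyme, was at 91.21 and 68.33 FPKM (1.33-fold), and *Pgls*, the lactonase, at 263.88 and 231.83 (1.14-fold). *Pgd* (ENSMUSG00000028961, chr4:149149991-149166771), which forms NADPH and releases carbon dioxide, was at 171.87 and 102.93 FPKM, 1.67-fold higher in GFP-high cells. None of its windows was shared with another locus, and it was counted on the TPM scale as well. In the non-oxidative branch, which rearranges sugars, *Taldo1* was at 260.16 and 179.74 FPKM (1.45-fold), *Tkt* at 442.65 and 336.75 (1.31-fold) and the ribose phosphate isomerase *Rpia* at 21.19 and 19.96 (1.06-fold). The ratios of the branch sums were 1.31 and 1.35, oxidative branch first.

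Of the isocitrate dehydrogenases 1 was counted. *Idh1* (ENSMUSG00000025950, chr1:65158616-65186500), the cytosolic NADP-linked enzyme, was at 87.11 and 46.61 FPKM, 1.87-fold higher in GFP-high cells, with no shared window. *Idh2*, its mitochondrial counterpart, was at 369.28 and 263.87 FPKM (1.40-fold). Among the 3 subunits of the NAD-linked enzyme, which serves the cycle proper, *Idh3a* was at 68.61 and 83.15 FPKM, *Idh3b* at 194.58 and 196.06 and *Idh3g* at 214.75 and 259.06, and none was counted. *Idh3b* was level, with a ratio of 0.992 that became 1.02 when the libraries were scaled by their median ratio. The NADP-linked pair summed to 456.4 against 310.5 FPKM, a ratio of 1.47, and the NAD-linked subunits to 477.9 against 538.3, a ratio of 0.888.

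Taking *G6pdx*, *Pgd*, *Idh1* and *Idh2* together as the NADPH-forming dehydrogenases among the members, a grouping made after the values were seen, the sum was 719.5 FPKM in GFP-high against 481.7 in GFP-low cells and the median log2 difference 0.61. All 4 had the larger value in GFP-high cells on the FPKM and on the TPM scale, and 2 of the 4 were counted. Since the group was picked from its values, it is a description and carries no weight as evidence.

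The rest of the cycle was close to level. *Cs*, citrate synthase, was at 280.29 and 241.37 FPKM, and *Aco1*, the cytosolic aconitase that doubles as an iron sensor, at 15.33 and 19.68. *Ogdh* and *Dlst*, of the oxoglutarate dehydrogenase complex, were at 190.7 and 165.74 and at 101.46 and 120.25 FPKM. Of the succinyl-CoA ligase subunits, *Suclg1* was at 101.46 and 95.01 FPKM, the ADP-type *Sucla2* at 109.33 and 107.54 and the GDP-type *Suclg2* at 23.25 and 25.93. Fumarase (*Fh1*) was at 148.97 and 143.31 FPKM, and the cytosolic malate dehydrogenase *Mdh1* at 446.48 and 417.58. Over the 15 TCA genes the sum was 2924 against 2677 FPKM and the median log2 difference 0.06. *Idh1* was the only gene counted, beside 9.48% of the 10760 entries in GFP-high cells. The matrix enzymes without the NADP-linked pair, 11 genes, summed to 2005 and 1929 FPKM.

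**Figure D5:**
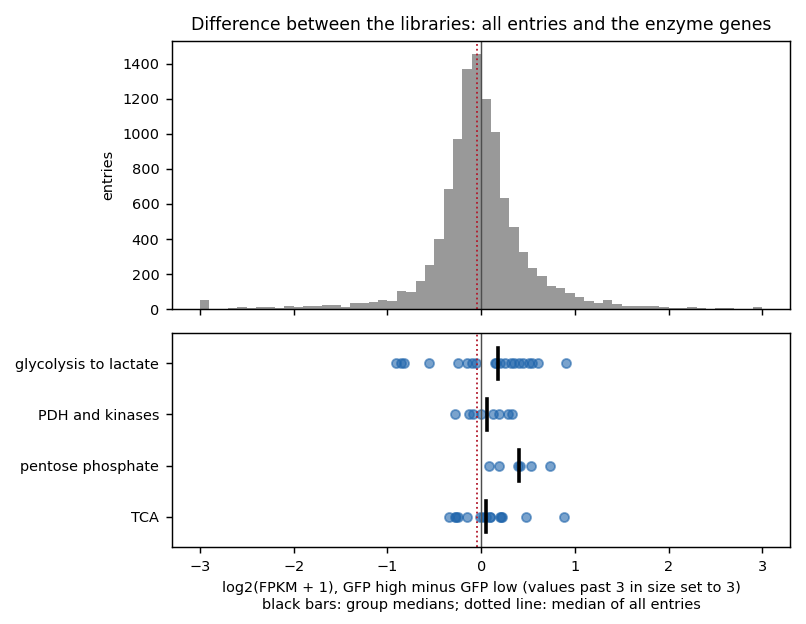
Distribution of the log2 difference (GFP-high minus GFP-low, on log2(FPKM + 1)) over all entries with at least 5 FPKM in either population, with the members of each pathway drawn as points. The medians of the pathways run from 0.06 to 0.40, beside -0.04 for all entries, and differences past 3 in size are drawn at 3.

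Promoter sequence was examined because glycolytic genes are classic targets of hypoxia-inducible factor, whose binding core reads ACGTG or GCGTG. RefSeq windows (GRCm38.p6) from 250 bases before to 50 after a start site were available for 50 members, all but *Idh3a*, in 73 windows. ACGTG occurred on either strand in 29 of the 73 windows (39.7%), against 21.2% of 19100 windows of all genes in the table, and GCGTG in 41 (56.2%) against 39.9%. CACGTG, which contains ACGTG on both strands, occurred in 8 (11.0%) against 8.08%, and TGACNNNGC, the core of the antioxidant response element, in 9 (12.3%) against 13.1%. The windows of all genes include genes that stayed under 5 FPKM, and several windows of 1 gene can overlap. Counted by gene, ACGTG was present in 20 members and absent from 30. Among entries with a window and 5 FPKM or more in either population, it was present in 2474 and absent from 5757. The stretches below, upstream of annotated exons, show ACGTG on either strand in capitals for 3 glycolytic genes, with overlapping matches merged. They lie at chr7:46845649-46845784 (plus strand, -155 to -20 from the start), chrX:106186940-106186983 (plus strand, -160 to -117) and chr6:82774492-82774690 (minus strand, -236 to -38).
Ldha: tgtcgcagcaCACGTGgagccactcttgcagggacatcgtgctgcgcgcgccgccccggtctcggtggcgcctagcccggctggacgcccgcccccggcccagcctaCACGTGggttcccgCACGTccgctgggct
Pgk1: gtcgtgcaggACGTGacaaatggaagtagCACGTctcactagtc
Hk2: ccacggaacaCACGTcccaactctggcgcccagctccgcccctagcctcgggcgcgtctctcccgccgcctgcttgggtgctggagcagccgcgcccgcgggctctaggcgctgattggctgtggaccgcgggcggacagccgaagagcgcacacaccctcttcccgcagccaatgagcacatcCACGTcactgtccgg

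Members with and without ACGTG had close medians. The 20 members with ACGTG in a window had a median log2 difference of 0.18, with 2 counted in each direction, and the 30 without it had 0.14, with 3 counted in GFP-high against 1 in GFP-low cells. Over all entries at 5 FPKM or more the medians were -0.05 with the letters and -0.04 without. *Ldha*, *Pgk1* and *Hk2* differed by 1.15-, 1.52- and 1.12-fold, and *Gapdh* and *Pfkfb2*, which also carry ACGTG, were higher in GFP-low cells. A match describes the sequence and does not show that a factor binds.

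Other genes of the pathways were read from 5 further lists of 54 genes, 33 of them at 5 FPKM or more in either population. The rule counted 4 as higher in GFP-high against 0 in GFP-low cells, beside 9.48% and 8.9% of the 10760 entries at 5 FPKM or more in either population. With so few genes these counts are no result about the pathways. The listed genes not at 0 in both libraries had a median log2 difference of 0.02, against -0.02 for all entries by the same filter. *Slc2a1*, the main glucose transporter of epithelia, was at 247.09 and 156.37 FPKM, 1.58-fold higher in GFP-high cells. *Fbp2*, the muscle-type fructose bisphosphatase, was at 21.3 and 5.42 FPKM (3.93-fold), and pyruvate carboxylase (*Pcx*) at 13.04 and 7.65 (1.70-fold). *Me1*, the cytosolic malic enzyme, was at 31.56 and 21.01 FPKM (1.5-fold), with 30.4% of its windows shared. On the TPM scale *Slc2a1* and *Me1* would fall under 1.5-fold.

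Other abundant genes of these lists were not counted. Succinate dehydrogenase, the TCA enzyme of the respiratory chain, was at 281.18 and 285.53 FPKM for *Sdha* and at 266.79 and 245.7 for *Sdhc*. The mitochondrial pyruvate carrier gene *Mpc2* was at 90.13 and 90.57 FPKM and the complex component *Pdhx* at 28.73 and 26.39. *Bpgm*, which makes bisphosphoglycerate, was at 173.39 and 158.78 FPKM, *Adpgk*, an ADP-dependent glucokinase, at 36.65 and 38.87, and the pentose epimerase *Rpe* at 49.9 and 49.05. *Prps1* and *Prps2*, which activate ribose for nucleotide synthesis, were at 13.96 and 20.13 and at 17.42 and 16.43 FPKM. The lactate transporter *Slc16a1* was at 40.66 and 46.72 FPKM.

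Markers of other cell types and states moved between the libraries beside these enzymes. As background for every marker list, the rule counted 9.48% of the 10760 entries toward GFP-high and 8.9% toward GFP-low. Of 8 suprabasal keratinocyte genes 4 were counted in GFP-high cells (summed FPKM 51210 against 17080). *Krt13* (30522.7 and 9738.29 FPKM) and *Krt4* (14203.0 and 2323.16) made up most of these sums. *Krt10*, *Krt6a* and *Lor* were not counted, and *Ivl* had the larger value in GFP-low cells (0.67 and 2.19). Of 7 basal keratinocyte genes 1 was counted in GFP-low cells (summed FPKM 25800 against 32950). Of 11 fibroblast genes 6 were counted in GFP-low cells (508.6 against 2299). Of the 7 at 5 FPKM or more in either population, 1 had the larger value in GFP-high cells, *Fbln1* at 54.88 and 40.23 FPKM. Of 8 Schwann lineage genes 6 were counted in GFP-low cells (67.87 against 278.9), among them *Sox10* at 0.51 and 42.73 FPKM. *Erbb3*, which was not counted, made up 60.25 and 66.89 FPKM of these Schwann sums. None of these fibroblast and Schwann genes was at 0 in either library. In GFP-high cells, however, *Foxd3* and *Cdh19* were at 0.12 FPKM and *Fabp7* at 0.43, and such low values do not show that the cell type was present. *Eno2*, an enzyme of neural tissue, had its larger value in the same population as the Schwann genes, and *Aldoc*, another, in the opposite one.

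Of 12 skeletal muscle genes 1 was counted in each direction (131.4 against 147.9 FPKM), *Tnnt3* in GFP-high cells (8.58 and 5.05) and *Mylpf* in GFP-low cells (47.67 and 73.14). Of 7 erythroid genes 3 were counted in GFP-high cells (118.4 against 40.98 FPKM). These were the globin genes *Hba-a1*, *Hba-a2* and *Hbb-bs*, with 67.5%, 86.9% and 57.5% of their windows at another locus, so their FPKM is uncertain. Of 9 endothelial genes 1 was counted in GFP-high cells (37.43 against 26.88), of 6 melanocyte genes 1 (18.53 against 3.91, of which *Mitf* alone made up 17.17 and 1.24, while the list median was -0.2 on the log2 scale), with *Tyr* at 0 in both and *Mlana* at 0 in GFP-high cells, and of 10 leukocyte genes none (22.75 against 23.79), with *Cd52* at 0 in GFP-low cells. Of 8 proliferation genes *Cdk1* alone was counted, at 239.49 and 141.58 FPKM, and the list summed to 839.6 and 689.7. The part of these other cells and of cycling cells in the enzyme ratios was not tested.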

How the data were processed

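RNA of 1 GFP_High and 1 GFP_Low library was made into stranded mRNA libraries and sequenced as single reads of 50 nt. Per the submitters' processing notes the tools were Trimmomatic 0.36, GSNAP and Cufflinks 2.2.1, with the mm10 mouse genome. The authors deposited 1 FPKM value per gene and population, rounded to 2 decimals. The deposited columns are named means, but the labels give 1 library each, so each value was read as that of 1 library. A deposited fold column, the authors' own comparison, was not used. The table holds 0 columns of other samples.

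From the FPKM the ratio of GFP_High over GFP_Low was computed for 21607 entries, after removal of 21 that GENCODE M21 does not type as protein-coding, and 17 without a number were not compared. A member was counted at 5 FPKM in the enriched population and 1.5-fold, after the threshold the study gives with its results. Its methods ask for 5 FPKM in each sample, which was run as an alternative. Medians were taken on log2(FPKM + 1). With 1 library per population no test was run, and read depth was too uncertain to recover counts or to give intervals. Exon windows of 50 nt and gene positions came from GENCODE M21 on mm10, and 20% of windows at another locus marked an uncertain FPKM. Scripts ran in Python 3.11.15 with numpy 2.4.6, pandas 2.3.3 and matplotlib 3.10.9 and were tested on simulated data.

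All 51 members were accounted for. Other pathway genes were named if counted or among the 2 with the highest FPKM of their list, and markers if at 5 FPKM or more in either library. The markers given as 0, *Ivl*, *Prps1*, the NADPH grouping and the split of isocitrate dehydrogenases by cofactor were chosen after values were seen. So were the promoter examples and the stretches printed. Some values are not reported here. Members and lists were chosen with earlier results of these data known. Alternatives were other FPKM and fold minimums, pseudocounts, the TPM scale, scaling by the median ratio (0.973), and leaving out members of uncertain FPKM.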

Additional observations from a re-analysis of the deposited data

How the results depend on the processing

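With a 2-fold minimum 0 members were counted as higher in GFP-high and 1 (*Eno2*) in GFP-low cells, instead of 5 and 3. With a 1.25-fold minimum 15 and 5 were counted. Under 1.25-fold lay 59.2% of the 49 members at 5 FPKM or more in either population, against 62.7% of the 10760 entries. Shares of all entries by direction were not computed at these minimums, so the counts are no result about these pathways. On the TPM scale the counts were 3 and 4, because *Pgk1* and *Eno1* dropped under 1.5-fold and *Hk1* passed it. The median log2 difference of the members was then 0.06 instead of 0.15, but this scale lowers the log2 ratio of every entry by 0.10. Without the 6 members of uncertain FPKM the counts were 3 and 2. Without *Eno1*, *Eno3* made up 89.5% of enolase FPKM in GFP-high against 82.3% in GFP-low cells instead of 13.7% and 21.7%. The other FPKM minimums, pseudocounts and median scaling gave 4 to 6 members in GFP-high and 2 or 3 in GFP-low cells, with *Pgk1* lost on FPKM + 1, *Eno2* lost at 10 FPKM or 5 FPKM in each population and *Hk3* added with no minimum, and medians other than that on the TPM scale ran from 0.15 to 0.19. No counted member changed direction. No paired analysis was possible because each population has 1 library, which also leaves no replicate to leave out. Depth limits *Hk3* and *Pgam2*, whose values rest on few reads.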

Other observations

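A list of 16 genes of the hypoxia response, which shares targets with glycolysis, gave 2 genes counted in GFP-high against 1 in GFP-low cells. The rule counted 9.48% and 8.9% of the 10760 entries at 5 FPKM or more in either population, so these small counts are no result about hypoxia. The median log2 difference of the list was -0.09, against -0.02 for all entries not at 0 in both libraries. *Adm*, the vasodilator adrenomedullin, was at 94.82 and 40.82 FPKM (GFP-high first), 2.32-fold higher in GFP-high cells, and *Ndrg1*, a stress and differentiation gene, at 172.77 and 90.23 FPKM, 1.91-fold higher. *Epas1*, which encodes a hypoxia-inducible factor subunit, was at 21.49 and 35.67 FPKM, 1.66-fold higher in GFP-low cells. *Hif1a* was at 85.04 and 101.42 FPKM and the target *Vegfa* at 87.09 and 78.74 FPKM, and neither was counted. Of the 15 list genes at 5 FPKM or more in either population, 6 had the larger value in GFP-high against 9 in GFP-low cells. *Hif1a* and *Vegfa* were named after their values were seen.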
